A study of Mus musculus with 12 samples.

Results

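Cerebellins are secreted proteins of the C1q family that organize synapses, and this report follows their 4 genes, Cbln1, Cbln2, Cbln3 and Cbln4, together with Grid1 and Grid2ip of the delta-type glutamate receptor complex. The 6 genes were taken by symbol from the 24421 gene entries of the deposited table. Cells carrying green fluorescent protein (GFP) under the Aldh1l1 promoter, which is active in astrocytes, were sorted by flow cytometry from the cerebellum of untreated Aldh1l1-GFP mice on a C57/BL6J background at 4 postnatal ages, P1, P7, P14 and P28, the number being the day after birth. All groups carry the same transgene and differ in age alone as labelled, with 3 libraries each, and both sexes were used. Whether a library held cells of 1 animal or of several is not given in the sources used here, so the p-values measure the spread between libraries, which may be technical in part. The gate rests on a single promoter.

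In the cerebellum, granule neurons send parallel fibres onto Purkinje cell dendrites. Cbln1 released from these fibres binds neurexins on the presynaptic side and delta-type glutamate receptors on the postsynaptic side, which holds the contact together. Bergmann glia, the astrocytes of the Purkinje cell layer, wrap the same synapses. Cbln3 is a granule neuron protein that needs Cbln1 to leave the cell, Cbln2 and Cbln4 are used by other neurons of the brain, Grid1 encodes the delta receptor GluD1, and Grid2ip encodes delphilin, a PDZ scaffold at the parallel fibre synapse. These statements are background and were not measured here.

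Reads counted on genes numbered 14733985, 12777850 and 11478899 in the P1 libraries and 10878006, 6399499 and 11328604 in the P7 libraries. At P14 they numbered 9573905, 9856910 and 9470510, and at P28 7965152, 10269334 and 9337259. Values below are normalized counts, that is, reads divided by one size factor per library, given for replicates 1, 2 and 3 in turn. P7 replicate 2 had the fewest reads, and it stood apart from the other P7 libraries in cell type markers, with the lowest astrocyte sum (29291 against 53547 and 49516) and the highest sum for mature granule neurons (14174 against 6588 and 8717) and endothelium. P14 replicate 3 had the highest granule neuron sum (38151 against 21725 and 26522) and the lowest choroid plexus sum (880 against 109040 and 63417). Where a call on the 6 genes or on a named partner gene was lost without 1 library, this is said beside it.

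All 6 genes passed the filter on low values, which asked for 10 or more normalized counts in 3 or more libraries. A gene was called changed when its adjusted p lay under 0.05 and its log2 fold change, up or down, exceeded 0.75, using limma on log2(normalized count + 1) with Benjamini-Hochberg adjustment over 15464 genes. From P1 to P7, Cbln3 was called higher, as were 3.10% of all genes tested, and Grid1 lower, as were 3.91% (7.01% in either direction). From P7 to P14, Cbln1 and Cbln3 were called higher, as were 10.0% of all genes, and 0 of the 6 lower, where 8.79% of all genes were (18.8% in either direction). From P14 to P28, Cbln2 was called lower, as were 8.53% of all genes, and 0 of the 6 higher, where 4.58% of all genes were (13.1% in either direction). Libraries of the 2 ages did not overlap for 4, 3 and 1 of the 6 genes in these steps, where 38.3%, 46.1% and 26.1% of all genes did not overlap. The median log2 fold change of the 6 genes was 1.05, 0.22 and -1.09, beside 0.037, -0.086 and -0.12 over all genes tested. With 3 libraries against 3, an exact permutation test on a single gene cannot give a p below 0.1.

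**Figure D1:**
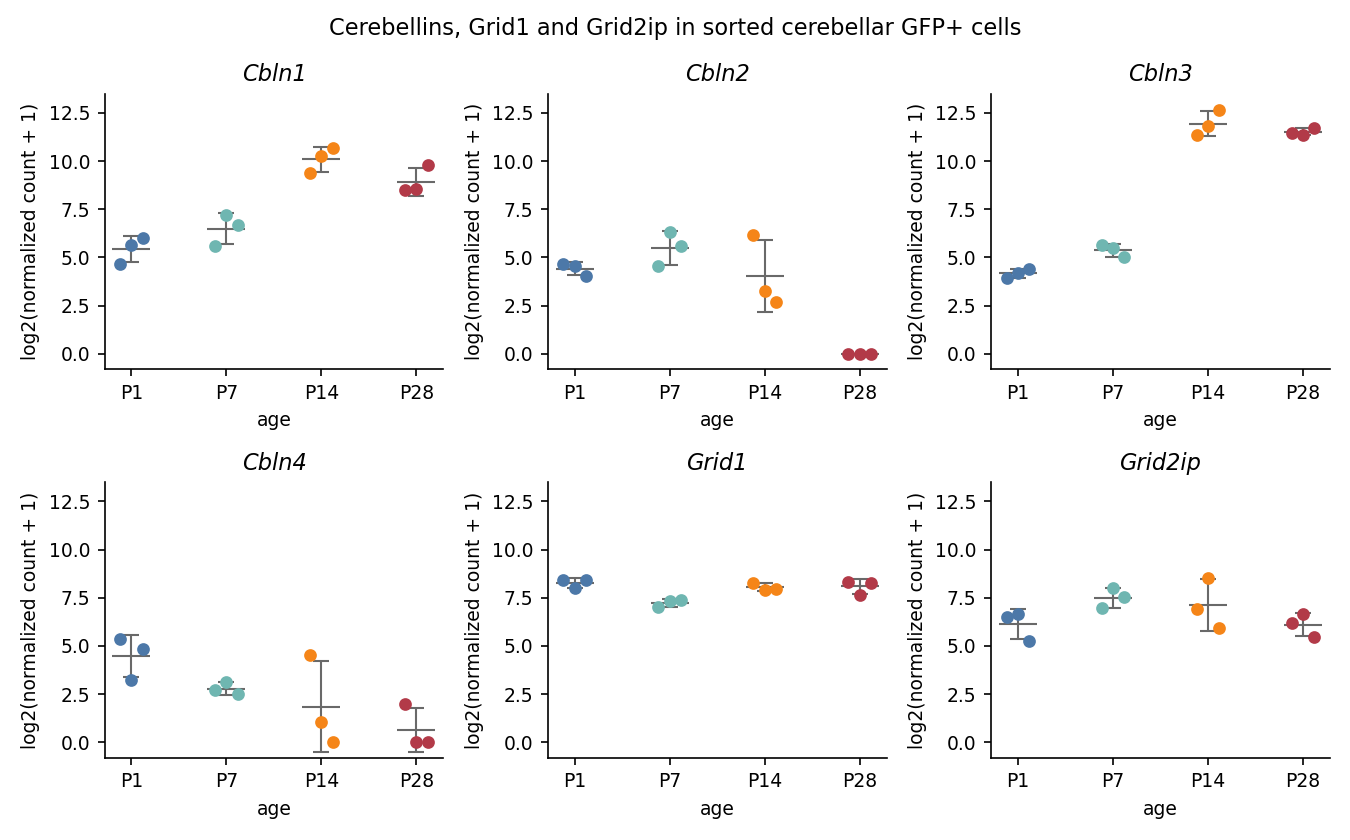
log2(normalized count + 1) of the 4 cerebellin genes, Grid1 and Grid2ip by age. Each point is a library, the long bar is the mean and the error bar the SD of 3 libraries. Cbln1 and Cbln3 were highest at P14 and P28, Cbln2 was at 0 in all 3 libraries at P28, and Grid1 was lowest at P7.

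Cbln3 changed most among the 6 genes. Its normalized counts were 14.2, 17.1 and 20.4 at P1, 49.4, 43.2 and 31.0 at P7, 2622, 3641 and 6357 at P14, and 2834, 2649 and 3358 at P28. Every library at P14 and P28 lay far above every library at P1 and P7, and the P7 libraries lay above those of P1. The means in order of age were 17.2 ± 3.15 (SD, n = 3), 41.2 ± 9.34, 4207 ± 1931 and 2947 ± 368, so that the P14 mean was 102-fold that of P7.

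In the limma fit, Cbln3 rose from P7 to P14 by 6.57 on the log2 scale (SE 0.33, 95% interval 5.86 to 7.27, adjusted p = 5.51e-08). The preceding step from P1 to P7 was smaller, at 1.198 (SE 0.33, 95% interval 0.49 to 1.90, adjusted p = 0.0389). That call was lost when P1 replicate 1 or 2, P7 replicate 1 or 2, or P14 replicate 2 was left out, with adjusted p up to 0.139, while the fold change stayed between 1.06 and 1.38. From P14 to P28 the change of -0.42 (95% interval -1.13 to 0.28, adjusted p = 0.419) did not pass the test, and the P14 and P28 libraries overlapped.

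Cbln3 lies on chromosome 14 (GRCm38, 55878913 to 55884392, minus strand), and its promoter window, 250 bases before to 50 after the start site, is shown because it belongs to the gene with the largest change. The sequence is from RefSeq on GRCm38.p6, chr14:55884207-55884506, read 5′ to 3′ on the gene's minus strand. Capitals mark matches to the half-site of nuclear factor I, spelled TTGGC or GCCAA on the other strand, and the motifs searched were chosen after the expression values were seen. The start site is that of RefSeq and lies within the gene bounds just given, which are from GENCODE. RefSeq entries were matched for 3 of the 6 genes.
Cbln3: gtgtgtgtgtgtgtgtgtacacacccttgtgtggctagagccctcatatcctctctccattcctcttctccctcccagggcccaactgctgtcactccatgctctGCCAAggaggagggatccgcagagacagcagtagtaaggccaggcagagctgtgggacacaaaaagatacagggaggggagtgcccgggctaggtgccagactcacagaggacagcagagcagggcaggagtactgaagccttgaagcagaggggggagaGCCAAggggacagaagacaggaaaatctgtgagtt
The window held 2 matches, beginning at -145 and 16 relative to the start site. Of 32851 promoter windows of the same length, 46.7% held at least 1 match and 14.4% held at least 2. An E-box, spelled CANNTG, occurred 1 time and is found in 72.3% of windows. The NeuroD type of E-box, spelled CAGATG, was not found on either strand, and 17.2% of windows hold it. The TATA box, spelled TATAAA and held by 13.6% of windows, was not found either, nor was the cAMP response half-site, spelled TGACG and held by 20.8%. A match of letters is a description of the window and not of a bound site.

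Cbln1 followed the same order of ages as Cbln3, P14 being highest on average, then P28, P7 and P1. Its normalized counts were 24.6, 49.3 and 62.9 at P1, 47.8, 144 and 100 at P7, 662, 1215 and 1605 at P14, and 355, 372 and 875 at P28. The P1 and P7 libraries overlapped, as did those of P14 and P28, while all 6 later libraries lay above all 6 earlier ones. The means were 45.6 ± 19.4 (SD, n = 3), 97.2 ± 48.2, 1161 ± 474 and 534 ± 296. Cbln1 rose from P7 to P14 by 3.61 on the log2 scale (SE 0.51, 95% interval 2.51 to 4.70, adjusted p = 1.70e-04), a ratio of means of 11.9. The step from P1 to P7, 1.04 (SE 0.51, adjusted p = 0.295), did not pass. Nor did the step from P14 to P28, -1.16 (95% interval -2.26 to -0.064), which had an unadjusted p of 0.0395 and an adjusted p of 0.144 in limma.

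Cbln1 lies on chromosome 8 (GRCm38, 87468405 to 87472609, minus strand), and the annotation places the long noncoding gene Gm2694 across it on the opposite strand, with 0 shared exon bases. Gm2694, named here after its values were seen, had normalized counts of 15.4, 0 and 20.4 at P1, 79.6, 132 and 86.8 at P7, 276, 435 and 603 at P14, and 65.8, 55.4 and 103 at P28. It was highest at P14, as Cbln1 was. Whether the counting used strand is not stated in the sources used here, so reads of the 2 genes outside their annotated exons cannot be told apart.

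Compared per kilobase of exon, Cbln3 and Cbln1 changed places. Mean normalized counts per kilobase in order of age were 3.54, 8.46, 865 and 606 for Cbln3, and 15.0, 32.0, 382 and 176 for Cbln1. Cbln1 was thus the higher of the pair at P1 and P7, and Cbln3 at P14 and P28. The ratio of Cbln3 to Cbln1 normalized counts was 0.575, 0.348 and 0.325 at P1 and 1.03, 0.300 and 0.310 at P7. It was 3.96, 3.00 and 3.96 at P14 and 7.98, 7.13 and 3.84 at P28. All later libraries lay above all earlier ones, while P14 and P28 overlapped. This ratio was chosen after the values were seen and was not tested.

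Cbln2 ran the other way, with no read at the last age. Its normalized counts were 24.0, 22.9 and 15.1 at P1, 22.3, 78.5 and 46.5 at P7, 72.0, 8.46 and 5.43 at P14, and 0 in all 3 libraries at P28. P14 replicate 1 was about as high as the highest P7 library, and the other P14 libraries were below every library of P1 and P7. The means were 20.7 ± 4.82 (SD, n = 3), 49.1 ± 28.2 and 28.6 ± 37.6 before P28.

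Cbln2 fell from P14 to P28 in the limma fit by 4.04 on the log2 scale (SE 0.92, adjusted p = 0.0108), a value that depends on the pseudocount because P28 is at 0. The call was lost with a pseudocount of 10 (-1.52, adjusted p = 0.0929) and with only the 2 ages compared (adjusted p = 0.0693). Against a floor of 3 reads in each P28 library, the P14 mean was at least 7.17-fold higher, and at least 1.74-fold higher without P14 replicate 1. On the same floor, P7 was at least 12.3-fold and P1 at least 5.18-fold higher than P28, a bound that covers counting error only. The P1 to P7 change of 1.06 (adjusted p = 0.640) and the P7 to P14 change of -1.44 (adjusted p = 0.315) did not pass. The latter was -2.51 without P14 replicate 1 (adjusted p = 0.0528) and -0.76 without P14 replicate 3, with edgeR giving -0.73. Over longer spans, Cbln2 fell from P7 to P28 (adjusted p = 3.28e-04) and from P1 to P28 (adjusted p = 0.00207), with fitted log2 changes of -5.48 and -4.41.

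Cbln4 was a rare transcript throughout. The reads behind it were 64, 12 and 37 at P1, 7, 6 and 6 at P7, 21, 1 and 0 at P14, and 2, 0 and 0 at P28. In normalized counts these were 39.4, 8.57 and 28.02, then 5.57, 7.85 and 4.65, then 22.2, 1.06 and 0, and last 2.92, 0 and 0. P1 was the highest group and did not overlap P7 or P28, but it did overlap P14, where replicate 1 held nearly all the reads.

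None of the 3 consecutive steps passed the test for Cbln4. The P1 to P7 value was -1.70 (SE 1.11, adjusted p = 0.485), the P7 to P14 value -0.93 (adjusted p = 0.631) and the P14 to P28 value -1.20 (adjusted p = 0.503). Over the whole period from P1 to P28 it fell by 3.83 (adjusted p = 0.0161). That call was lost without P1 replicate 1 or P1 replicate 3, with an adjusted p of up to 0.0676. Scaled by the size factors, 113 reads at P1 against 2 at P28 gave a ratio of 29.5 (95% exact interval 7.99 to 247, counting error only). Both P28 reads lay in replicate 1. Cbln4 lies on chromosome 2 (GRCm38, 172036233 to 172043466, minus strand).

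Grid1 dipped at P7. Its normalized counts were 342, 251 and 347 at P1, 127, 158 and 164 at P7, 310, 239 and 247 at P14, and 323, 201 and 304 at P28. All P7 libraries lay below every library of the other ages, which overlapped among themselves. The means were 313 ± 53.7 (SD, n = 3), 150 ± 19.8, 265 ± 39.2 and 276 ± 66.0.

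Grid1 fell from P1 to P7 by 1.05 on the log2 scale (SE 0.30, 95% interval -1.69 to -0.41, adjusted p = 0.0446 in limma). The call lay close to the threshold, and it was lost when any single library of P1, P7 or P14 was left out (adjusted p 0.0533 to 0.172, log2 change -1.20 to -0.94). It was also lost with replicate numbers blocked in the fit (adjusted p = 0.0547). From P7 to P14 the value of 0.82 (95% interval 0.18 to 1.46, adjusted p = 0.0673) did not pass although the libraries did not overlap, and it passed when any 1 P28 library was left out (adjusted p 0.0345 to 0.0495). From P7 to P28 it rose by 0.85 (adjusted p = 0.0349), a call lost without any 1 P7 library, P28 replicate 1 or P28 replicate 3 (adjusted p up to 0.124), with only the 2 ages compared (adjusted p = 0.0967) and with scaling by library totals alone (0.36, adjusted p = 0.346). Between P14 and P28 the difference was 0.036 (95% interval -0.60 to 0.67, adjusted p = 0.956). Grid1 spans chromosome 14 from 34820108 to 35583379 on the plus strand (GRCm38).

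Grid2ip varied widely within ages, and no consecutive step passed the test. Its normalized counts were 88.6, 100 and 37.1 at P1, 123, 257 and 183 at P7, 119, 372 and 59.7 at P14, and 71.6, 100 and 43.3 at P28. The P7 libraries lay above those of P1 and P28, while P14 ran from below the highest P1 library to above every other library. The means were 75.2 ± 33.5 (SD, n = 3), 188 ± 66.7, 184 ± 166 and 71.7 ± 28.5. The log2 changes of the steps were 1.36 (SE 0.64, adjusted p = 0.265), -0.37 (95% interval -1.75 to 1.00, adjusted p = 0.754) and -1.02 (adjusted p = 0.311), and P28 against P1 gave -0.028 (adjusted p = 0.979). The P14 to P28 step ranged from -1.62 without P14 replicate 3 to -0.31 without P14 replicate 2, and passed in neither case (adjusted p = 0.139 and 0.791). P7 against P28, -1.39 (adjusted p = 0.101), passed with replicate numbers blocked in the fit (adjusted p = 0.0458) and with scaling by library totals alone (-1.88, adjusted p = 0.0265). Grid2ip lies on chromosome 5 (GRCm38, 143357338 to 143392152, plus strand), and an antisense gene, Gm20635, shares 645 exon bases with it, so its counts are uncertain if strand was not used.

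**Figure D2:**
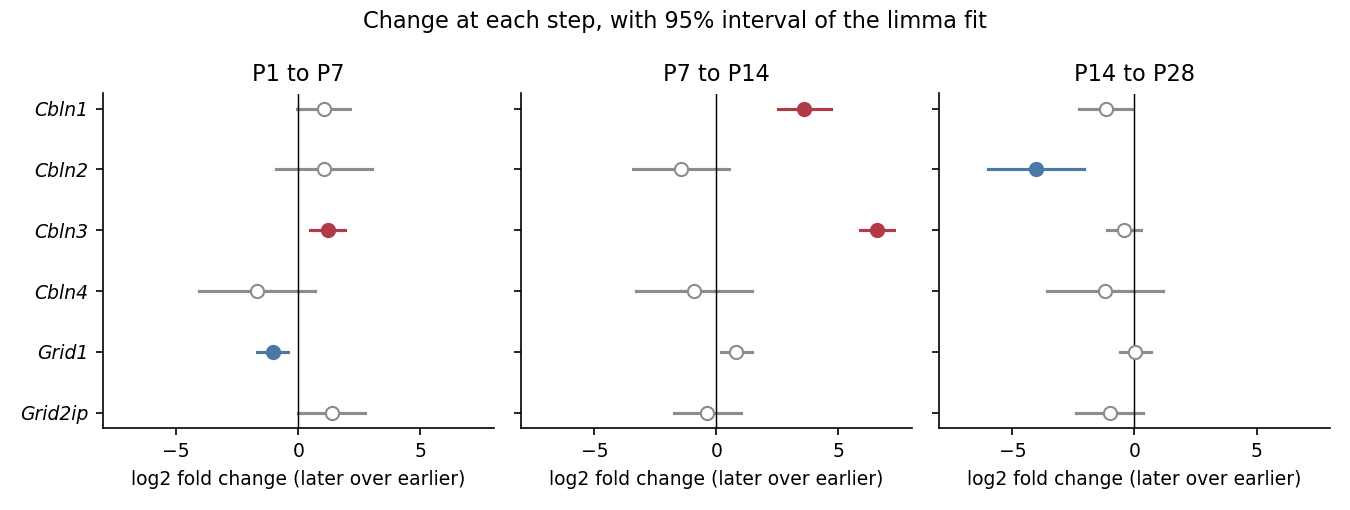
Log2 fold change of the 6 genes at each consecutive step, later age over earlier age, with the 95% interval of the limma fit. Filled points passed the threshold, red for higher and blue for lower. The widest intervals belong to Cbln2 and Cbln4, and the P7 to P14 values of Cbln1 (3.61) and Cbln3 (6.57) stand clear of the other rises. The P14 to P28 value of Cbln2 (-4.04) is larger in size than that of Cbln1.

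Across the longer spans, Cbln1 and Cbln3 were called higher and 0 of the 6 lower from P1 to P14, with log2 changes of 4.65 and 7.77, where 9.68% of all genes were called higher and 8.78% lower (18.5% in all). Cbln4 was not called over that span (-2.62, adjusted p = 0.115) but was called lower without P14 replicate 1 (-3.96, adjusted p = 0.0136). From P7 to P28, Cbln1 (2.45), Cbln3 (6.14) and Grid1 were called higher and Cbln2 lower, where 14.8% of all genes were called higher and 21.3% lower (36.1% in all). From P1 to P28, Cbln1 (3.49) and Cbln3 (7.34) were called higher and Cbln2 and Cbln4 lower, where 13.3% of all genes were called higher and 18.7% lower (32.0% in all). These spans share their libraries with the consecutive steps.

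Cerebellin receptors were measured through a list of 4 genes. The neurexins Nrxn2 and Nrxn3 are presynaptic adhesion proteins, and Dcc and Neo1 are netrin receptors that Cbln4 can bind. On this list, the first step had 2 genes called higher and 0 lower, the second 1 higher and 1 lower, and the third 0 higher and 1 lower. Of all genes, 3.10%, 10.0% and 4.58% were called higher in these steps and 3.91%, 8.79% and 8.53% lower. The list's median log2 changes were 0.77, -0.53 and -0.086, beside the medians of all genes given above.

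Nrxn3 rose from P1 to P7 by 1.58 (adjusted p = 0.00276), from 914, 905 and 1377 normalized counts to 3309, 2475 and 3694. Nrxn2 rose from P7 to P14 by 1.26 (adjusted p = 0.00408), from 408, 359 and 463 to 701, 1119 and 1184. Neither of these 2 comparisons had overlapping libraries. Nrxn2 had been at 685, 833 and 658 at P1, also without overlap with P7 (-0.82, adjusted p = 0.0872, not called). Per kilobase, mean normalized counts in order of age were 84.5, 251, 184 and 152 for Nrxn3 and 52.5, 29.7, 72.5 and 90.0 for Nrxn2, so that Nrxn3 was the higher of the pair on average at each age.

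Dcc moved most on the receptor list. Its normalized counts were 1812, 549 and 2910 at P1, 9105, 5492 and 8275 at P7, 211, 173 and 106 at P14, and 20.5, 2.36 and 9.47 at P28. The 4 ages did not overlap. Dcc rose from P1 to P7 by 2.39 (adjusted p = 0.0314), then fell by 5.56 (adjusted p = 2.37e-05) and changed again by -4.12 (adjusted p = 0.00121). The first of these calls was lost without P1 replicate 1 or 2, any 1 P7 library, or P14 replicate 2 (adjusted p up to 0.159), with log2 changes from 1.70 to 2.90 over all single libraries left out. The last was lost with only the 2 ages compared (adjusted p = 0.0509). Neo1 stayed between 3613 and 7433 normalized counts in all libraries and was not called in any consecutive step.

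The C1q-like proteins, relatives of the cerebellins that bind the adhesion receptor Adgrb3, were measured through a list that also holds C1ql3. Of the 5 genes on this list 4 were tested, C1ql4 being at 0 in all libraries but 1. The single call over the 3 consecutive steps was C1ql2, lower from P14 to P28 (adjusted p = 0.0251), where 8.53% of all genes were called lower. C1ql2 had 9.53, 10.6 and 8.69 normalized counts at P14 and 0 in every P28 library, so that P14 was at least 2.40-fold higher on the floor of 3 reads per library. The call was lost without any 1 P14 library (adjusted p up to 0.0593) and with a pseudocount of 10 (-0.97, adjusted p = 0.135). C1ql1, which climbing fibres use on Purkinje cells, had 213, 258 and 193 at P14 and 26.3, 53.1 and 145 at P28, values that did not overlap and did not pass the test. The list's median log2 changes were -0.63, 0.54 and -1.14.

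Among 8 postsynaptic partners of the delta receptors and of Purkinje cell spines, 1 was called higher in the first step, 1 was higher in the second and 1 lower in the third. Of all genes, 3.10% and 10.0% were called higher in the first and second steps and 8.53% lower in the third. On the list 0 were called the other way in each step, where 3.91%, 8.79% and 4.58% of all genes were. The list's median log2 changes were 0.57, 0.19 and -0.16. Dlg2, a membrane-associated scaffold, had 119, 221 and 358 normalized counts at P1, 505, 1048 and 708 at P7, 994, 1318 and 1820 at P14, and 501, 419 and 467 at P28. It rose from P1 to P7 by 1.77 (adjusted p = 0.00783) and fell from P14 to P28 by 1.53 (adjusted p = 0.0140), the 2 calls being lost without P7 replicate 2 (adjusted p = 0.0504) and without P14 replicate 3 (adjusted p = 0.0689). Magi2, another scaffold, rose from P7 to P14 by 1.00 (adjusted p = 0.00249), a call lost with scaling by library totals alone (0.746, under the fold threshold, adjusted p = 0.0171). Ptpn4, Dlg4, Shank1, Shank2, Homer3 and Gopc were called in no consecutive step. Of these, Dlg4 from P7 to P14 (0.748, adjusted p = 0.0150) and Ptpn4 from P14 to P28 (0.738, adjusted p = 0.0172) fell just short of the fold threshold alone.

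**Figure D3:**
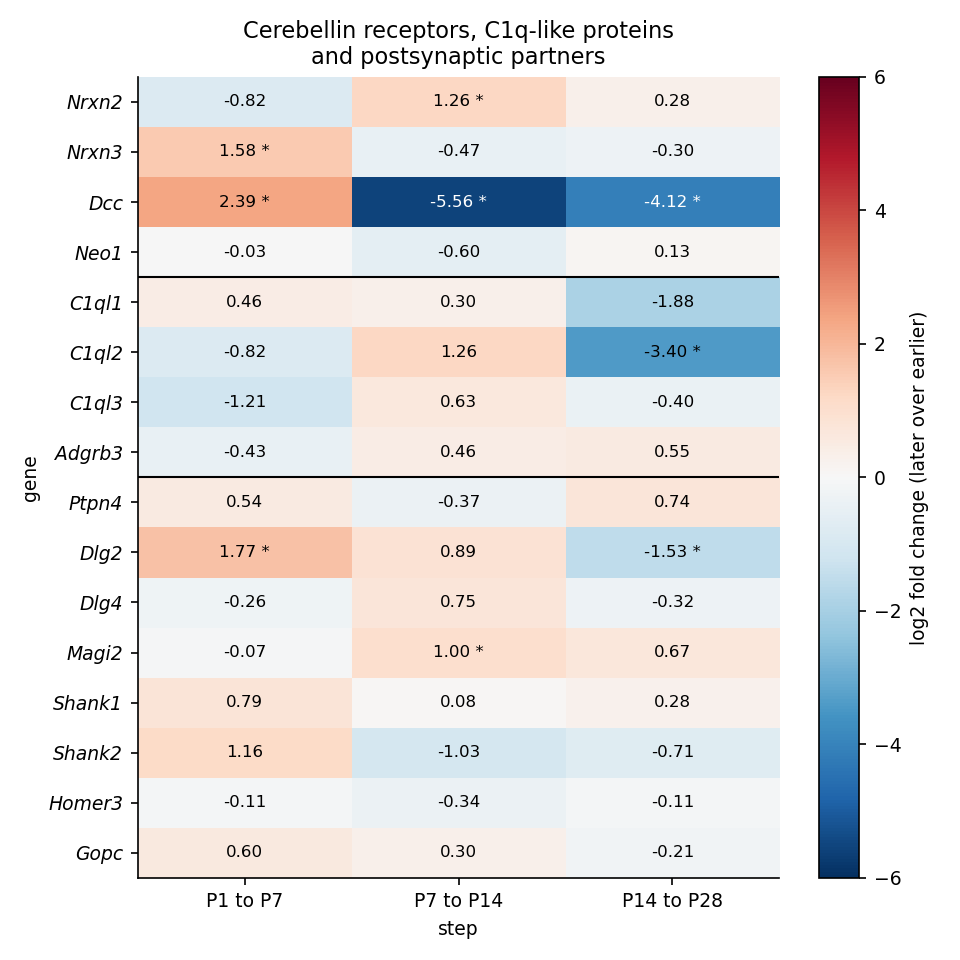
Log2 fold change, later age over earlier age, of the 16 related genes that passed the filter, in rows, at each consecutive step, in columns. Lines divide cerebellin receptors, C1q-like proteins with Adgrb3, and postsynaptic partners, red is higher and blue lower, and an asterisk marks a call. Dcc spans 2.39 to -5.56, the widest range among these genes.

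Because Cbln1 and Cbln3 are granule neuron genes, markers of other cell types were read in the same libraries. In bulk samples, fewer cells of a type and less RNA per cell cannot be told apart. On the list of 11 mature granule neuron markers, the first step had 7 called higher and 1 lower, the second 8 higher and 0 lower, and the third 0 higher and 5 lower. Beside these counts and those of the marker lists below, 3.10%, 10.0% and 4.58% of all genes were called higher. The shares called lower were 3.91%, 8.79% and 8.53%. The list's summed normalized counts were 3504, 3317 and 4021 at P1, 6588, 14174 and 8717 at P7, 21725, 26522 and 38151 at P14, and 13008, 14142 and 14692 at P28, in the same order of mean levels by age as Cbln1 and Cbln3. The sums for oligodendrocytes, microglia, endothelium and neurons of any kind, given below, had this order of means too. Single genes did not all share it. In the neuron list Snap25, Syt1 and Eno2 did. Tubb3 and Stmn2 were highest at P7, Map2 was lowest at P14, and Nefl and Nefm had other orders. P2ry12 of the microglia and Flt1 of the endothelium were highest at P28. In the granule list Rbfox3, Neurod1, Cadps2, Etv1 and Reln had other orders. Chn2 and Fat2 were the most abundant granule neuron markers.

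Gabra6, a receptor subunit of mature granule neurons, was at 0 in all 3 P1 libraries and had 12.7, 51.0 and 48.1 normalized counts at P7. It had 1433, 2196 and 3285 at P14 and 1011, 800 and 872 at P28. Within P14, Cbln1, Cbln3, Gabra6 and the granule sum were all lowest in replicate 1 and highest in replicate 3. So were the sums for neurons of any kind, oligodendrocytes, oligodendrocyte precursors, endothelium, and unipolar brush cells with excitatory nuclear neurons. Most of the oligodendrocyte sum was Mbp (100190, 125610 and 212770), while Mobp, Mog, Mag and Cnp were each lowest in replicate 3. Pdgfra, the most abundant precursor marker, was also lowest there (805, 730 and 624). At the other ages, Cbln1, Cbln3, Gabra6 and the granule sum shared an order only in part. At P1, Cbln1, Cbln3 and the granule sum were highest in replicate 3, Gabra6 being at 0. At P7, Cbln1, Gabra6 and the granule sum were lowest in replicate 1 and highest in replicate 2, while Cbln3 was highest in replicate 1. At P28, Cbln1, Cbln3 and the granule sum were highest in replicate 3, while Gabra6 was highest in replicate 1. Gabra6 rose from P7 to P14 by 6.06 (adjusted p = 3.96e-06), beside 6.57 for Cbln3 and 3.61 for Cbln1, and its change of -1.29 from P14 to P28 did not pass (adjusted p = 0.131). The part of granule neuron RNA in the changes of Cbln1 and Cbln3 was not tested.

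Ratios to these markers, chosen after the values were seen and not tested, differed between the pair. Cbln3 per 100 counts of the granule list was, in order of age, 0.476 ± 0.063 (SD, n = 3), 0.470 ± 0.243, 14.2 ± 2.33 and 21.1 ± 2.14. Cbln1 per 100 counts was 1.25, 0.963, 3.95 and 3.77 on average. The ratio of Cbln3 to Gabra6 was 3.88, 0.846 and 0.645 at P7, 1.83, 1.66 and 1.94 at P14, and 2.80, 3.31 and 3.85 at P28. The ratio of Cbln1 to Gabra6 was 3.75, 2.82 and 2.08 at P7, 0.462, 0.553 and 0.489 at P14, and 0.351, 0.465 and 1.00 at P28. Cbln3 was thus higher against Gabra6 in each P28 library than in any P14 library, and Cbln1 was higher against it at P7 than later. The P7 ratios divide by few counts of Gabra6 (12.7, 51.0 and 48.1), so they carry more counting error than the later ones.

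**Figure D4:**
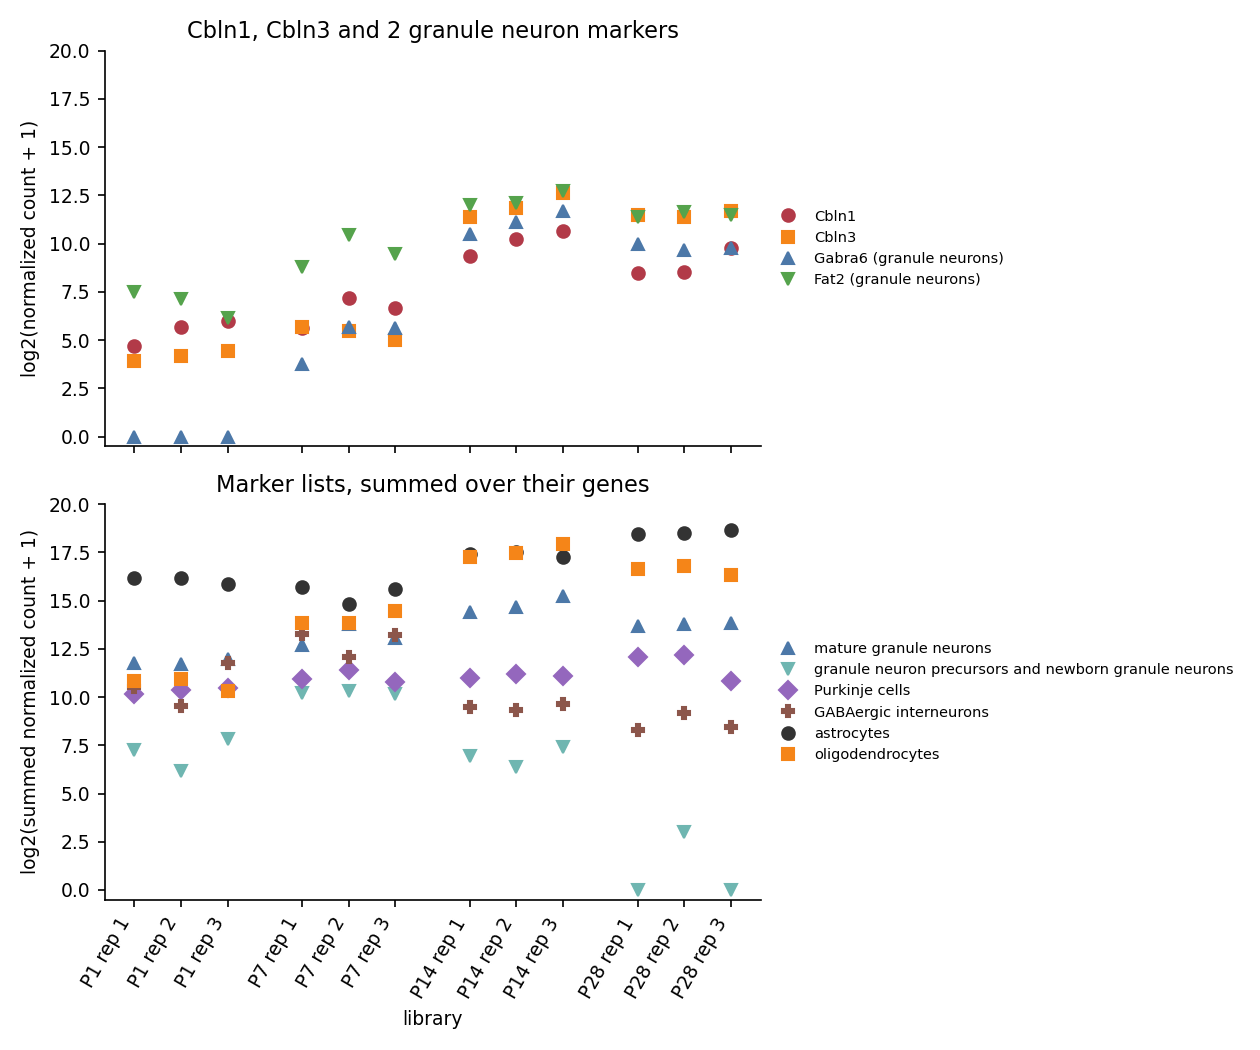
Top, log2(normalized count + 1) of Cbln1, Cbln3 and the granule neuron markers Gabra6 and Fat2 in each library. Bottom, log2(summed normalized count + 1) of 6 marker lists in the same libraries. Gabra6 was at 0 in all P1 libraries, and the granule neuron sum was highest at P14 (21725 to 38151), as were Cbln1 and Cbln3 on average.

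Precursor and interneuron lists had another order of ages. Granule neuron precursor markers (4 genes, Nhlh1 and Insm1 most abundant) summed to 154, 70.7 and 229 at P1, 1170, 1294 and 1142 at P7, 123, 81.5 and 169 at P14, and 0, 7.08 and 0 at P28. They were highest at P7, with 2 called higher and then 3 lower and 3 lower in the consecutive steps. GABAergic interneuron markers (7 genes, Tfap2b and Pax2 most abundant) summed to 1459, 734 and 3481, then 10004, 4394 and 9461, then 718, 635 and 797, and last 310, 584 and 353. They shared their P7 peak with Dcc, and 6 of 7 were called lower from P7 to P14. The other, Prkcd, was called higher in that step (log2 change 1.502, adjusted p = 0.0205), from 94.7, 78.5 and 88.4 to 263, 184 and 316 normalized counts.

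Purkinje cell markers (8 genes, Itpr1 and Car8 most abundant) summed to 1153, 1300 and 1427 at P1, 1947, 2682 and 1778 at P7, 2066, 2390 and 2214 at P14, and 4390, 4683 and 1838 at P28. In the first step 1 of the 8 was called higher and 1 lower, in the second 1 higher, and in the third 0. The called gene from P7 to P14 was Pcp2, which rose by 3.66 (adjusted p = 0.00127) from 12.7, 6.54 and 6.20 to 75.2, 93.1 and 210 normalized counts. Markers of unipolar brush cells and excitatory nuclear neurons (4 genes, Slc17a6 and Eomes most abundant) ranged, in order of age, from 119 to 218, 283 to 675, 223 to 341 and 59.5 to 71.6. Their summed mean was highest at P7, then P14, P1 and P28, which was also the order of the means of Cbln2 and Grid2ip. The listed genes did not have this order singly. Slc17a6 was higher at P1 than at P14 on average (112 and 80.7), as was Tbr1 by a small margin, and Eomes and Lmx1a were highest at P14. The place of P14 for Cbln2 rested on replicate 1, without which its mean was 6.95, below the P1 mean of 20.7. Markers of neurons of any kind (8 genes, Snap25 and Map2 most abundant) ranged from 6730 to 11677, 11467 to 13749, 23343 to 41599 and 18419 to 22725. The part of any of these lists in the values of the cerebellins, Grid1 and Grid2ip was not tested.

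The label of the sorted cells was read against glial markers. Astrocyte markers (10 genes, Slc1a3 and Slc1a2 most abundant) summed to 74423, 74400 and 59407 at P1, 53547, 29291 and 49516 at P7, 174800, 191090 and 154960 at P14, and 358110, 378070 and 419130 at P28, with every marker detected at each age. Like Grid1, the list was lowest at P7, with 2 of 10 markers called higher and 5 lower in that first step. Aldh1l1, whose promoter set the gate, had 6441, 4741 and 3842 normalized counts at P1, 1985, 936 and 1488 at P7, 1834, 1978 and 1824 at P14, and 2451, 3338 and 2974 at P28. It fell from P1 to P7 by 1.80 (adjusted p = 4.66e-04), and unlike the astrocyte sum it was lower at P28 than at P1 (-0.76, adjusted p = 0.0286). Bergmann glia markers (5 genes, Gria4 and Gria1 most abundant) ranged from 18351 to 19855, 9051 to 15571, 37391 to 50971 and 86190 to 112560 in order of age. Most of the P1 sum was Fabp7, which fell from P1 to P7 (mean 15869 to 5855 normalized counts, adjusted p = 0.00262), while Gria4 and Gria1 rose in that step. In the 3 steps 2, 4 and 4 of these markers were called higher and 1, 1 and 0 lower. Oligodendrocyte markers (5 genes, Mbp and Mobp most abundant) ranged from 1272 to 1974, 14609 to 22292, 154600 to 253710 and 82010 to 113800 in order of age. This sum was above the astrocyte sum in P14 replicate 3, where Mbp alone had 212770 normalized counts. Mobp, Mog, Mag and Cnp each had their lowest P14 value in that library.

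The remaining lists were read for completeness of the cell type check. Oligodendrocyte precursor markers (5 genes, Pdgfra and Olig1 most abundant) ranged from 6735 to 10441, 2457 to 2889, 4556 to 4931 and 1086 to 1976 at the 4 ages. Microglia markers (8 genes, Csf1r and P2ry12 most abundant) ranged from 551 to 1493, 1177 to 1811, 1961 to 3153 and 1525 to 2382. Endothelial markers (4 genes, Flt1 and Pecam1 most abundant) ranged from 182 to 1219, 519 to 3849, 2222 to 2756 and 1777 to 2678. Choroid plexus markers (5 genes, Ttr and Kl most abundant) ranged from 285 to 752, 47881 to 127520, 880 to 109040 and 17749 to 182590, with Cbln1 and Cbln3 highest of P14 in the library where this sum was lowest. Among 3 red blood cell markers, the globin genes Hba-a1 and Hbb-bs were listed at 0 in every library, and Alas2 ranged from 2.92 to 118.

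Genes whose pattern was most like each member were found by Pearson's r of log2(normalized count + 1) over the 12 libraries, as a description with no test. All libraries share the same 4 ages, so any gene with the same order of ages scores high. For Cbln1 they were Camk2b (r = 0.982), Ipcef1 (0.979), Gabrd (0.975), Unc13c (0.971) and Opalin (0.969), of which Gabrd is also on the granule neuron list and Opalin is known as an oligodendrocyte gene. For Cbln3 they were a septin whose symbol had been turned into a date in the table (0.990), Gas7 (0.989), Nptn (0.988), Tuba4a (0.987) and Pcp2 (0.984), the last of which is on the Purkinje cell list. Cbln1 and Cbln3 had an r of 0.945 with each other.

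The other members gave r values down to 0.815. For Cbln2 the closest were Erich6 (r = 0.973), Tnfaip8l2 (0.952), Trip13 (0.946), Nron (0.942) and Gtf2h4 (0.942). For Cbln4 they were AW011738 (0.938), Gabre (0.937), Adgrg2 (0.920), Zfp819 (0.909) and Cd1d2 (0.902). For Grid1 they were Pomt2 (0.892), Prss23 (0.854), Vps13d (0.851), Wbp1l (0.850) and Eef2k (0.850), and for Grid2ip Gdap2 (0.885), Tbx4 (0.867), Adh1 (0.855), Rbpjl (0.846) and Gm22650 (0.815). Grid1 and Grid2ip had an r of -0.57 with each other over the same libraries.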

How the data were processed

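RNA-seq of GFP-sorted cerebellar cells was compared over 12 libraries, 3 at each of 4 ages, grouped by the sample labels. The authors aligned reads to mm10 and counted them per gene on UCSC transcripts, and the submitters' processing notes name STAR 2.5.0a, DESeq2 1.30.1, FastQC 0.11.7 and MultiQC 1.11. The deposited values are normalized counts (a signal), each library's counts divided by one size factor. Whole reads were recovered for 100% of values (tolerance 0.001 reads). Depth was 6399499 to 14733985 reads, and no reads in a library allows up to 3 reads there (95%, counting error only).

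limma 3.58.1 (R 4.3.3) was fitted to log2(value + 1) with a variance trend and one mean per age, over the 15464 genes that reached 10 in 3 or more libraries, with Benjamini-Hochberg adjustment. Fold changes on this scale understate changes of low genes. In simulated data for P7 to P14 with a log2 change of 2 in 200 genes, 118 were recovered over 15158 genes and 6 unchanged genes were called. Alternatives were edgeR 4.0.16 and DESeq2 1.42.0 on the recovered reads, which called 2770 and 3441 genes from P7 to P14, a pseudocount of 10, no filter, scaling by library totals alone, only the ages compared, a replicate block, unadjusted p-values, and each library left out. All 12 pairs of libraries of one age differed by more than sampling noise (r 0.849 to 0.965).

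All members and listed related genes were named, with 14 marker lists by their sums and 2 most abundant genes, and the 5 genes most like each member. The members and lists were chosen with earlier results of these data known. Coordinates are from GENCODE M21 on GRCm38. Some single-gene results are not reported here, and those genes were left out of the lists.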

Additional observations from a re-analysis of the deposited data

How the results depend on the processing

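Cbln1 and Cbln3 from P7 to P14 kept their direction and call under all 20 alternatives, at 3.17 to 3.97 and 6.22 to 6.86 on the log2 scale. Cbln3 from P1 to P7 was not called with a pseudocount of 10 (0.90) or with only the 2 ages compared (1.198), and ranged from 1.06 to 1.38 with single libraries left out. Grid1 from P1 to P7 was not called with edgeR (-1.05), library totals (-0.99) or the replicate block (-1.05), and ranged from -1.20 to -0.94. Grid1 from P7 to P14 was called with DESeq2, with 2 ages and by unadjusted p (all 0.82), and ranged from 0.70 to 0.89. Cbln1 from P14 to P28 passed by unadjusted p (-1.16). Cbln2 from P14 to P28 was not called with a pseudocount of 10 (-1.52) or with 2 ages (-4.04), and ranged from -4.72 to -2.96.

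Signs turned only for uncalled values. From P7 to P14, Cbln4 was 0.41 with edgeR, 0.37 with DESeq2 and -2.27 to 0.0028 with single libraries left out, and Grid2ip was 0.0077 with edgeR and -1.08 to 0.23. From P14 to P28, Cbln4 ranged from -2.13 to 0.14, and Grid1 from -0.093 to 0.25, with -0.20 by library totals. From P1 to P14, Cbln2 was 0.51 with edgeR, 0.47 with DESeq2 and -1.45 to 0.31. From P1 to P28, Grid1 ranged from -0.35 to 0.015 and Grid2ip from -0.47 to 0.29. The causes were not tested.

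Of all genes, 1084 were called from P1 to P7, against 2300 with 2 ages, 2198 by unadjusted p and 633 to 1361 with single libraries left out. From P14 to P28, 2027 were called, against 736, 3725 and 1199 to 2643. Library totals moved the median of all genes to -0.34 and -0.35 from P7 to P14 and in the following step, and the share of calls that were higher from 53.2% to 33.2% and from 34.9% to 16.6%. With the mean of each age removed, same-numbered libraries of different ages had a median r of 0.031 (highest 0.139, 1 of 18 pairs over 0.1). Libraries of different numbers had a median of -0.011, with 0 of 36 pairs over 0.1. These low values do not settle whether the replicate numbers pair the libraries. The replicate block gave 1073, 2857 and 1967 calls in the 3 steps. Cbln2 at P28 and Cbln4 from P7 on rest on few or no reads, so changes there are limited by depth.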
